A study of Mus musculus with 46 samples.

Results

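The 10 genes described here encode cytokines of the interleukin 6 (IL6) family, interleukin receptors and a feedback inhibitor of their signaling. They were taken by name from the tables of 25147 genes: Il6, Lif, Il11, Il6ra, Il6st, Osmr, Socs3, Il1r1, Il1rl1 and Il4ra. They were read in 46 libraries, 1 per ovarian follicle, from outbred CD-1 mice. The follicles were encapsulated in alginate, a gel that holds their shape, and grown for 8 days with recombinant follicle-stimulating hormone (rFSH), then freed from the gel and moved to a maturation medium. That medium held 1.5 IU/ml human chorionic gonadotropin (hCG), a ligand of the luteinizing hormone receptor that triggers ovulation, with 10 ng/ml epidermal growth factor (EGF), 10 mIU/ml rFSH and 10% fetal bovine serum. By time after hCG there were 9 follicles (0 h), 13 (1 h), 13 (4 h) and 11 (8 h). Batch 1 held 10 follicles at 1 h and all 11 at 8 h, both on plate 1, and 10 at 4 h on plate 2. Batch 2, a separate set of libraries, comprised 3 follicles each of 1 h and 4 h and the whole 0 h group. No group kept in culture without hCG is labeled, the age of the mice is not given, follicles are not tied to animals, and a p-value here covers how follicles vary, not animals.

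In the pathway these genes serve, IL6, LIF and IL11 are secreted and bind receptors that all use the signal-transducing chain gp130, encoded by Il6st. IL6 is bound first by IL6RA, and oncostatin M by OSMR together with gp130, after which Janus kinases phosphorylate STAT3, which induces Socs3, whose product inhibits the pathway. IL1R1, IL1RL1 and IL4RA are receptors for IL1, for IL33 and for IL4 and IL13. In the ovary, ovulation is known as an inflammation-like process, and granulosa cells, the cells that surround the oocyte, are a known source of IL6 after the luteinizing hormone surge.

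Levels are given as CPM, adjusted counts per 1e+06 of a library size scaled by the TMM method, unless TPM, which is also scaled for gene length, is named. The libraries held between 241442 and 5185044 counts in total (the 0 h group had a median of 3286107, 1 h of 730895, 4 h of 1432395 and 8 h of 1755429), so that 3 counts, the limit that a count of 0 allows, stood for 0.88 to 2.25 CPM at 0 h but for 2.62 to 10.7 CPM at 1 h. Intervals and limits cover counting error only. A set of 3332 genes with 0 counts in the 6 batch 2 libraries made after hCG held 22.6% to 46.2% of all counts at 0 h. None of the 10 genes is in it, but it lowers TPM at 0 h. The 8 granulosa cell markers summed to 7900 to 45100 CPM, almost all of it Inha, an inhibin subunit, with medians of 26900, 21600, 19800 and 13200 CPM at the 4 times. Foxl2, a granulosa transcription factor, had medians of 21.3, 2.68, 0.747 and 2.23 CPM, and Amh was at a median of 0 throughout. The oocyte markers (8 genes) summed to 0 to 115 CPM. Each library is bulk RNA of a whole follicle, so fewer cells of a type and less RNA per cell cannot be told apart.

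Of the 10 genes, 6 passed the filter on low counts and entered the edgeR fit of 8629 genes: Il6ra, Il6st, Osmr, Socs3, Il1r1 and Il4ra. Il6, Lif, Il11 and Il1rl1 fell below it and are described by their counts. A gene is called, and said to have risen or fallen, at an edgeR adjusted p (Benjamini-Hochberg over all genes tested) under 0.05, and fold changes are on the log2 scale with their SE.

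The 3 cytokine genes were at or near 0 before hCG, and each was counted in most follicles at 4 h (12 of 13 for Il6, 11 of 13 for Lif and for Il11). Il6 (ENSMUSG00000025746.11, GRCm38 chromosome 5, 30013114 to 30019981, plus strand), the founding cytokine of the family, had 0 counts in all 9 follicles at 0 h. At 1 h it had 5 counts over the 10 follicles of batch 1, of which 8 were at 0, and 4, 1 and 0 counts (5.33, 2.31 and 0 CPM) in the 3 of batch 2. At 4 h the lowest, median and highest of batch 1 were 0, 3.43 and 16.4 CPM, and batch 2 stood at 7.65, 1.28 and 3.32 CPM. Thus 12 of 13 follicles at 4 h held at least 1 count, and all 3 of batch 2 stood above all 9 at 0 h. At 8 h the 11 follicles ranged from 0 to 5.79 CPM with a median of 0.742, and replicates 6, 8 and 9 carried 7, 12 and 13 of the 39 counts.

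Within batch 2, pooled Il6 counts at equal depth were 23.5 times the limit of 3 counts over the 0 h group at 1 h, from 5 counts, and 30.4 times it at 4 h, from 18 counts. These 2 ratios leave out the counting error of the 5 and the 18 counts. Within batch 1, the level at 4 h was 6.07 times that at 1 h (95% exact interval 2.5 to 19.2). At 8 h it was 0.407 times that at 4 h (0.271 to 0.602), although the groups overlapped. In an edgeR fit with no filter on low counts, Il6 differed from 0 h at 1 h (adjusted p = 0.00712), at 4 h (adjusted p = 1.77e-05) and at 8 h (adjusted p = 0.00156) and rose from 1 h to 4 h (2.12 ± 0.73, adjusted p = 0.0262), while the lower level at 8 h than at 4 h did not pass (-1.34 ± 0.64, adjusted p = 0.162). The authors' deposited table lists Il6 at 15.4-fold, 62.3-fold and 22.1-fold against 0 h at 1 h, 4 h and 8 h. Those folds have 0 counts in their denominator.

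Lif (ENSMUSG00000034394.14, chromosome 11, 4257557 to 4272514, plus strand), leukemia inhibitory factor, had 4 counts over the 9 follicles at 0 h and 3 counts over the 13 at 1 h. At 4 h, 11 of 13 follicles held a count, with a median of 0.977 CPM and a highest value of 3.85, and at 8 h 8 of 11 did, with a median of 0.695 and a highest of 4.18. It was called in no comparison of the fit without a filter. The largest difference there, at 4 h against 0 h, was 2.09 ± 0.92 (adjusted p = 0.0792).

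Il11 (ENSMUSG00000004371.15, chromosome 7, 4772373 to 4782859, minus strand), interleukin 11, ranged from 0 to 1.26 CPM at 0 h with a median of 0.33. At 1 h the 10 follicles of batch 1 ranged from 0 to 1.5 CPM with a median of 0, and the 3 of batch 2 had 2.67, 2.31 and 2.68 CPM, from 1 or 2 counts each. At 4 h batch 1 ranged from 0 to 11.5 CPM with a median of 2.8, batch 2 had 1.27, 2.55 and 4.15 CPM, and at 8 h the range was 0 to 9.65 with a median of 2.18. The 4 h and 0 h follicles of batch 2 did not overlap. The fit without a filter called rises of 3.08 ± 0.85 at 4 h (adjusted p = 0.00405) and 3.26 ± 0.97 at 8 h (adjusted p = 0.0105) against 0 h, and of 1.83 ± 0.68 from 1 h to 4 h (adjusted p = 0.0381). At 8 h the level was 1.18 times that at 4 h in batch 1 (0.79 to 1.77). Whether Il6 and Il11 differed in this step was not tested.

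**Figure D1:**
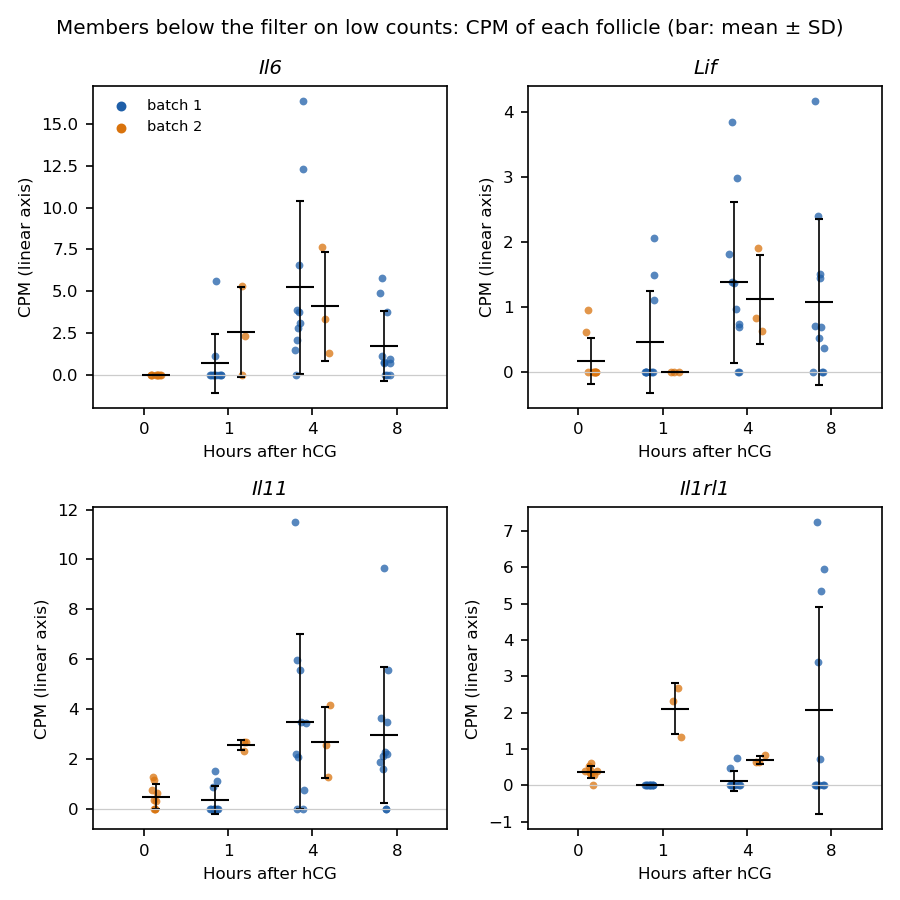
CPM (linear axis) of Il6, Lif, Il11 and Il1rl1 in each of the 46 follicles by hours after hCG, with batch 1 in blue and batch 2 in orange; bars are the mean ± SD of a batch at that time. Il6 is at 0 in all 9 follicles at 0 h and highest at 4 h (up to 16.4 CPM), and Il1rl1 in batch 1 is above 1 CPM in 4 follicles, all at 8 h.

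The stretches before the starts of the 3 cytokine genes are shown because all 3 were counted in most follicles at 4 h and all 3 hold a match to the AP-1 motif, the site of the FOS and JUN family. They are RefSeq sequences of GRCm38.p6, printed 5′ to 3′ on the strand of the gene, with motif matches in capitals. The Il6 stretch is chr5:30012864-30013113, the 250 bases before the start. The Lif stretch is chr11:4257318-4257417, bases 250 to 151 before the start, and the Il11 stretch is chr7:4778192-4778291 on the minus strand, bases 150 to 51 before a start (the table gives 2 for this gene). The Il11 stretch lies before a RefSeq start but inside the gene coordinates given above, which come from GENCODE.
Il6: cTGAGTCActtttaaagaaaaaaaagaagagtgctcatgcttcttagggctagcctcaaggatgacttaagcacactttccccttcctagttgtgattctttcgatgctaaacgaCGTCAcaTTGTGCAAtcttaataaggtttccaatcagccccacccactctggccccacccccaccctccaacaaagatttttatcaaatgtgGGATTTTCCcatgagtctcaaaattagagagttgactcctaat
Lif: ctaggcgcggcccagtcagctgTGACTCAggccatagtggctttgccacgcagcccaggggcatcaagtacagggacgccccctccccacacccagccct
Il11: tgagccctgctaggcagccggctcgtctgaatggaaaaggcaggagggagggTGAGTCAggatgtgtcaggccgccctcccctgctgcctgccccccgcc
The capitals mark AP-1 matches that begin 249 bases before the start in Il6, 228 in Lif and 98 in Il11. In Il6 they also mark the reverse of a cyclic AMP response element core 135 bases before the start, a C/EBP match at 128 and an NF-kB match at 43. No 2 of these matches overlap.

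Motifs were searched on both strands in the 250 bases before each start, spelled AP-1 TGANTCA, cyclic AMP response element core TGACG, C/EBP TTNNGNAA, NF-kB GGANTTTCC and STAT TTCNNNGAA. All 10 genes had a window, and Il11, Il1r1 and Il1rl1 had 2 each, which made 13. A gene with 2 windows can match in either, so counts of genes are not shares of windows. AP-1 letters stood in 6.75% of all 32851 windows and in those of 3 of the 10 genes, and NF-kB letters in 1.07% and in Il6 alone of the 10. The TGACG core stood in 17.8% of windows and in those of 4 genes (Il6, Il6ra, Il1r1, Il1rl1), and C/EBP letters in 36.8% and in the same 4. A match describes letters in this window and is neither a site nor a cause.

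Among the other ligands of the family (8 genes on the list), 1 entered the fit. Clcf1, cardiotrophin-like cytokine factor 1, rose by 4.22 ± 0.58 at 4 h (adjusted p = 2.91e-08) and by 5.47 ± 0.64 at 8 h (adjusted p = 1.22e-09) against 0 h. It had 8 counts over all 0 h follicles, 2 over those at 1 h, 219 at 4 h and 489 at 8 h, where all 11 follicles held it. Osm, the gene of oncostatin M, had 0 counts in all 46 libraries.

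The ligand-binding chain Il6ra was highest at 8 h and the shared chain Il6st rose little. Il6ra (ENSMUSG00000027947.11, chromosome 3, 89864059 to 89913196, minus strand) overlaps exons of Gm42809 on the other strand, and these libraries do not keep strand, so reads of the 2 cannot be told apart. At 0 h it ranged from 0 to 1.9 CPM with a median of 0.785, and at 1 h it had 1 count in 1 of 13 follicles. At 4 h batch 1 ranged from 0.467 to 14.2 CPM with a median of 3.77, and batch 2 had 3.19, 7.02 and 3.32 CPM. At 8 h the range was 4.87 to 31.5 CPM with a median of 11.4, and every follicle at 8 h stood above every follicle at 0 h and at 1 h.

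The rise of Il6ra against 0 h was 2.15 ± 0.60 at 4 h (adjusted p = 0.0021), which became 1.67 (adjusted p = 0.0584) without 4 h replicate 12 of batch 2, and 3.70 ± 0.69 at 8 h (adjusted p = 1.9e-05). From 1 h to 4 h it rose by 4.48 ± 0.74 (adjusted p = 1.24e-06), and from 4 h to 8 h by 1.55 ± 0.34 (adjusted p = 0.000196). In batch 1, on 1 plate, the pooled level at 8 h was 80.2 times that at 1 h (95% interval 14.3 to 3180, from 253 counts against 1). The lower level at 1 h than at 0 h (-2.33 ± 1.03, adjusted p = 0.0709) did not pass. Within batch 2 a fall was not detectable at this depth, since the 0 counts at 1 h allow up to 1.93 CPM, above the pooled 0.956 CPM at 0 h. The difference passed without 4 h replicate 12 (-2.73, adjusted p = 0.0464).

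Il6st (ENSMUSG00000021756.12, chromosome 13, 112464070 to 112510086, plus strand), gp130, was counted in all 46 libraries. It ranged from 20.2 to 90.5 CPM at 0 h with a median of 27.0, and 8 of the 9 follicles lay at or below 39.0. In batch 1 the lowest, median and highest were 23.9, 52.7 and 74.2 CPM at 1 h, 45.3, 61.0 and 97.8 at 4 h, and 32.3, 81.6 and 140.0 at 8 h. Batch 2 had 34.7, 48.5 and 50.9 CPM at 1 h and 35.7, 50.4 and 93.9 at 4 h. All groups overlapped. Il6st rose by 0.74 ± 0.28 at 4 h (adjusted p = 0.0207) and 1.08 ± 0.32 at 8 h (adjusted p = 0.00539) against 0 h, and by 0.64 ± 0.21 from 1 h to 8 h (adjusted p = 0.0112), while neither step between them passed (0.30 ± 0.20 from 1 h to 4 h, adjusted p = 0.204, and 0.33 ± 0.21 from 4 h to 8 h, adjusted p = 0.196).

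The highest 0 h follicle for Il6st, replicate 3 with 90.5 CPM, was also the highest of that group for Il1r1 with 44.4 CPM. Its leukocyte markers summed to 92.6 CPM, below replicates 1 and 8 (1570 and 195.0 CPM). Of these markers, Lyz2 stood at 69.6 CPM in replicate 3 and at 40.8 and 162 in replicates 1 and 8. Itgam had 3865 counts at 0 h, spread over 4 follicles, with a median of 0. It had 0 counts in the batch 2 libraries after hCG, as had the set of 3332 genes described above. Its counts at 0 h, and sums that hold them, therefore cannot be read against later times. Without replicate 3, Il6st was called at 1 h against 0 h (0.84, adjusted p = 0.00882). With it the value was 0.44 ± 0.29 (adjusted p = 0.237). Without the 5 libraries at 0 h whose descriptions end in _ds, Il6st was not called at 4 h (0.59, adjusted p = 0.171) or 8 h (0.93, adjusted p = 0.0526).

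Osmr (ENSMUSG00000022146.12, chromosome 15, 6813577 to 6874969, minus strand), the oncostatin M receptor chain, went from near 0 to a median of 25.0 CPM at 8 h. It ranged from 0 to 2.64 CPM at 0 h with a median of 0.621, and from 0 to 5.22 at 1 h in batch 1 with a median of 0. At 4 h batch 1 ranged from 3.27 to 35.9 CPM with a median of 14.5, and at 8 h from 2.6 to 152 with a median of 25.0. Batch 2 had 1.33, 11.5 and 2.68 CPM at 1 h and 0.637, 5.11 and 19.1 at 4 h. Of the 11 follicles at 8 h, 10 stood above every follicle at 0 h.

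Against 0 h Osmr rose by 3.10 ± 0.85 at 4 h (adjusted p = 0.00186) and by 4.78 ± 0.95 at 8 h (adjusted p = 4.99e-05), and from 4 h to 8 h by 1.68 ± 0.44 (adjusted p = 0.00159). In batch 1 alone it rose by 2.98 ± 0.83 from 1 h to 4 h (adjusted p = 0.00274), and in batch 2 alone by 2.88 ± 0.76 from 0 h to 4 h (adjusted p = 0.00941), where the step from 1 h to 4 h did not pass (0.76 ± 1.09, adjusted p = 0.729). In 7 of the 15 batch 2 libraries the adjusted count of Osmr was exactly 1, the lowest count above 0, which limits how far its level there can be resolved.

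Of 5 other receptors of the family on the list, 2 entered the fit, Lifr, the LIF receptor, and Il11ra1, the IL11 receptor, and both fell at 4 h and 8 h, where 32.2% and 27.6% of all genes were lower. Cntfr, Il27ra and Il31ra were too low to be tested. Lifr fell by 1.52 at 4 h (SE 0.32, adjusted p = 8.41e-05) and by 1.34 at 8 h (SE 0.35, adjusted p = 0.00174) against 0 h. The 8 h call was lost with a term for the 3 library sets, which are the 2 plates of batch 1 and batch 2 (-0.89, adjusted p = 0.0901) and with limma on log2(TPM + 1) (-0.49, adjusted p = 0.245) and log2(TPM + 0.1) (-0.52, adjusted p = 0.257). Il11ra1 fell by 3.45 at 4 h (SE 0.47, adjusted p = 2.8e-08) and by 2.63 at 8 h (SE 0.53, adjusted p = 5.91e-05). The median over the 2 genes was -2.48 at 4 h against 0 h, beside -0.12 over all genes tested.

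Socs3 (ENSMUSG00000053113.3, chromosome 11, 117966079 to 117970047, minus strand), the feedback inhibitor, ranged from 2.36 to 17.1 CPM at 0 h with a median of 3.81. At 1 h batch 1 ranged from 0 to 7.0 CPM with a median of 0.554, and batch 2 had 6.66, 16.2 and 2.68. At 4 h batch 1 ranged from 10.0 to 96.2 CPM with a median of 37.6, and batch 2 had 9.56, 12.8 and 20.8. At 8 h the range was 5.95 to 169 with a median of 58.4. In batch 1 all 10 follicles at 4 h stood above all 10 at 1 h, while in batch 2 the 4 h values overlapped those at 1 h and at 0 h.

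In the fit to all libraries Socs3 rose by 1.73 ± 0.66 at 4 h (adjusted p = 0.0242) and by 2.74 ± 0.74 at 8 h (adjusted p = 0.00236) against 0 h. Batch 2 alone gave 1.20 ± 0.53 at 4 h (adjusted p = 0.0907). At 1 h against 0 h the value was -1.57 ± 0.80 (adjusted p = 0.119), which passed without 1 h replicate 12 of batch 2 (-2.30, adjusted p = 0.0338). From 1 h to 4 h it rose by 4.31 ± 0.65 in batch 1 alone (adjusted p = 9.11e-07), and batch 2 alone gave 0.78 ± 0.77 (adjusted p = 0.584). The difference between these steps was tested in the 26 libraries at 1 h and 4 h and was -3.48 ± 1.03, batch 2 minus batch 1 (adjusted p = 0.0462), where 4.66% of 8629 genes were called. That test on the 8629 genes was chosen after seeing the data, since Socs3 fell below the filter of the 26 libraries. From 4 h to 8 h the rise was 1.01 ± 0.37 (adjusted p = 0.0258), which did not pass in batch 1 alone (0.87 ± 0.38, adjusted p = 0.0556) or without 8 h replicate 8 (0.89, adjusted p = 0.0557).

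The stretch before the Socs3 start is shown because it alone among the 10 genes holds the STAT letters. It is chr11:117969367-117969616 on the minus strand (RefSeq, GRCm38.p6), the 250 bases before the start, with the match, 154 bases before the start, in capitals. The start is that of RefSeq, and the stretch lies inside the gene coordinates given above, which come from GENCODE.
Socs3: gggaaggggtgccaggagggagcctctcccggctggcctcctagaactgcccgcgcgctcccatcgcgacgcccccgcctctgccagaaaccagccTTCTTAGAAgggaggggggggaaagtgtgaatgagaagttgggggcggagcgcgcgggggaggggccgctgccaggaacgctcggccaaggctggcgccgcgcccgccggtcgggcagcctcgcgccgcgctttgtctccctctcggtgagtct
STAT letters stood in 7.02% of all windows.

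In the plot of the tested genes by follicle, the 4 h and 8 h values of Osmr, Socs3 and Il4ra spread widely, and those of Il1r1 form a separate group at 4 h.

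**Figure D2:**
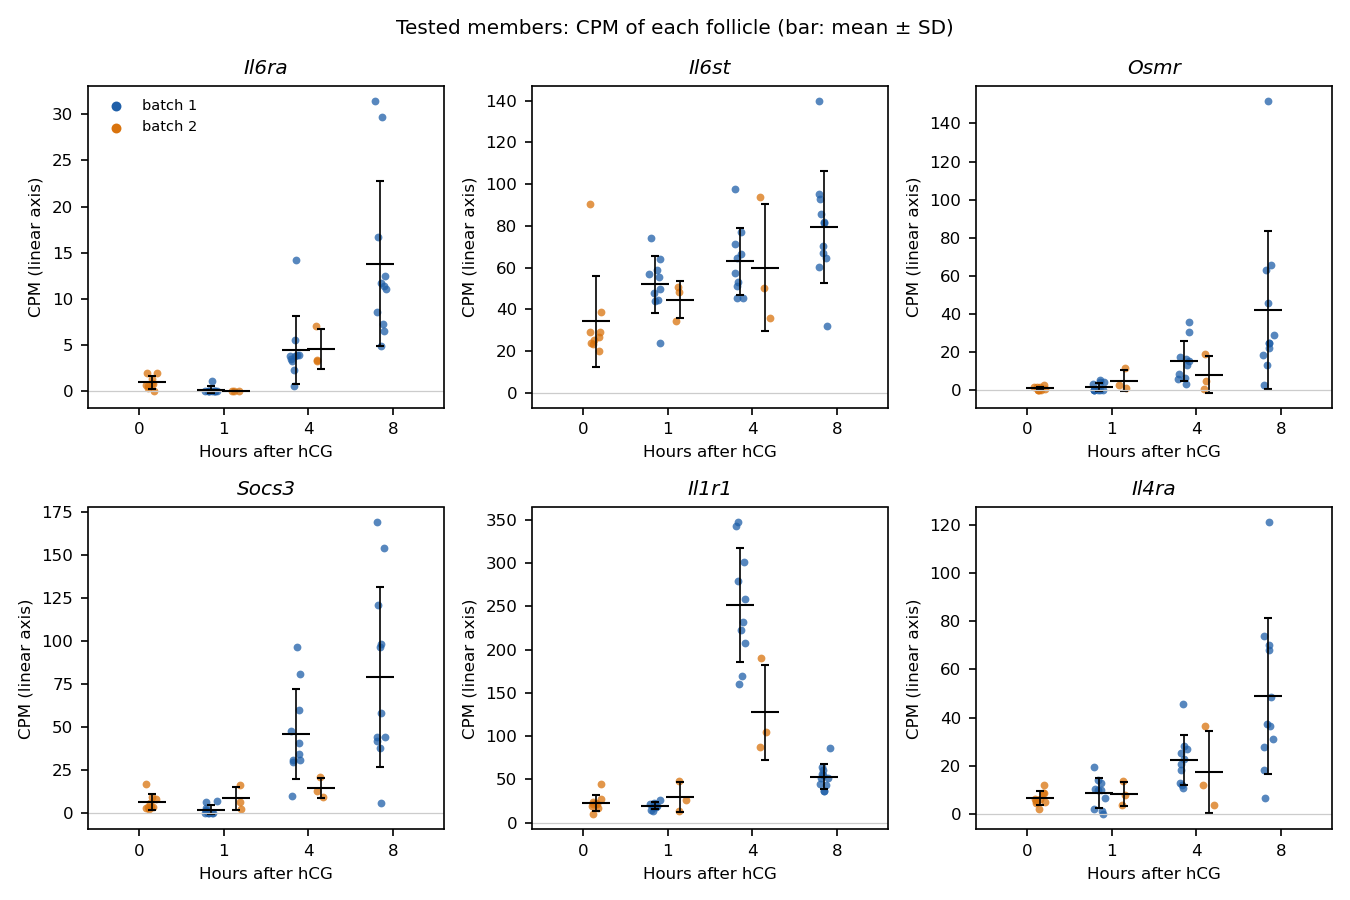
CPM (linear axis) of the 6 tested genes in each of the 46 follicles by hours after hCG, with batch 1 in blue and batch 2 in orange; bars are the mean ± SD of a batch at that time. Il1r1 is highest at 4 h (160 to 347 CPM in batch 1), while Il6ra reaches its highest values at 8 h (up to 31.5 CPM).

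The signaling genes between receptor and Socs3 did not move as 1 group. Of 11 genes of JAK-STAT signaling, 9 were tested, and at 4 h against 0 h 2 rose and 4 fell (median -0.81), at 8 h 3 rose and 4 fell (median -0.05). Stat3, the main transducer of gp130, rose by 1.26 ± 0.30 at 1 h (adjusted p = 0.000977), 1.88 ± 0.30 at 4 h (adjusted p = 9.08e-07) and 2.57 ± 0.34 at 8 h (adjusted p = 2.93e-08). Tyk2, a Janus kinase, rose by 1.19 ± 0.36 at 8 h (adjusted p = 0.00577), which became 1.23 (adjusted p = 0.0517) with the library set term. Jak1, the Janus kinase that gp130 depends on, fell by 1.71 at 4 h (SE 0.27, adjusted p = 4.76e-07) and by 2.44 at 8 h (SE 0.30, adjusted p = 5.25e-09). Stat5a fell by 3.50 at 4 h (SE 0.30, adjusted p = 6.34e-14) and rose by 1.78 ± 0.22 from 4 h to 8 h (adjusted p = 6.53e-09), where the library set term gave 0.68 (adjusted p = 0.384).

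Of 14 other JAK-STAT inhibitors, 11 were tested, and at 4 h against 0 h 1 rose and 4 fell (median -0.36), at 8 h 1 rose and 5 fell (median -0.47, beside -0.15 over all genes). Socs5 was the one that rose at both times, by 3.63 ± 0.44 at 4 h (adjusted p = 1.63e-09) and 3.02 ± 0.52 at 8 h (adjusted p = 4.96e-06). Socs2, which inhibits growth hormone signaling, fell by 2.46 at 8 h (SE 0.31, adjusted p = 6.82e-09), and Pias3, an inhibitor of STAT3, fell by 2.77 at 4 h (SE 0.33, adjusted p = 1.06e-09).

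Of 20 known STAT3 target genes, 13 were tested. At 1 h against 0 h 5 rose and 2 fell (median 1.25, beside -0.19 over all genes), at 4 h 9 rose and 3 fell (median 2.12, beside -0.12), and at 8 h 6 rose and 3 fell (median 1.53, beside -0.15). From 1 h to 8 h 3 rose and 7 fell (median -0.66). The largest rises of the list at 1 h were those of Junb, an AP-1 subunit (6.37 ± 0.51, adjusted p = 1.67e-14), Pim1, a kinase (5.35 ± 0.65, adjusted p = 7.63e-09), and Myc (3.35 ± 0.39, adjusted p = 1.59e-09). Myc fell by 3.21 from 4 h to 8 h (SE 0.31, adjusted p = 1.38e-11). Pim1 stood 6.54 ± 0.65 above 0 h at 4 h (adjusted p = 7.37e-12) and Fgl2 rose by 5.89 ± 0.97 (adjusted p = 1.29e-06). Timp1, an inhibitor of metalloproteinases, rose by 4.74 ± 0.45 at 4 h (adjusted p = 1.65e-12) and 6.25 ± 0.52 at 8 h (adjusted p = 6.92e-14). Bcl2l1 fell by 3.57 at 4 h (SE 0.37, adjusted p = 2.32e-11) and Fos by 2.70 at 8 h (SE 0.54, adjusted p = 5.15e-05). As background, many of these genes are also induced by other routes than STAT3.

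Il1r1 had the highest level of the 10 genes at 4 h. Il1r1 (ENSMUSG00000026072.12, chromosome 1, 40225080 to 40317257, plus strand), the signaling receptor of IL1, ranged from 9.64 to 44.4 CPM at 0 h with a median of 21.7. At 1 h batch 1 ranged from 13.1 to 26.9 CPM with a median of 19.2, and batch 2 had 48.0, 13.9 and 26.8. At 4 h batch 1 ranged from 160 to 347 CPM with a median of 245, and batch 2 had 190, 105 and 87.2. Every follicle at 4 h stood above every follicle at 0 h and 1 h and, in batch 1, above every follicle at 8 h, where the range was 36.2 to 86.6 with a median of 51.8.

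Il1r1 rose by 3.05 ± 0.29 at 4 h against 0 h (adjusted p = 2.16e-12), an 8.26-fold rise, and fell by 2.10 from 4 h to 8 h (SE 0.21, adjusted p = 1.63e-11). At 8 h it remained above 0 h by 0.94 ± 0.34 (adjusted p = 0.0197), a difference that did not pass without 1 h replicate 11 (0.65, adjusted p = 0.0871) or without the _ds libraries (0.72, adjusted p = 0.131), and above 1 h by 1.54 ± 0.17 in batch 1, on 1 plate (adjusted p = 2.67e-09). From 1 h to 4 h it rose by 3.77 ± 0.18 in batch 1 (adjusted p = 5.67e-18) and by 2.11 ± 0.51 in batch 2 (adjusted p = 0.0163). These steps differed by -1.69 ± 0.39, batch 2 minus batch 1 (adjusted p = 0.0107), in a test in which 5.09% of 5820 genes were called and Il1r1 was the one called of 3 members tested. Without 1 h replicate 11, whose 48.0 CPM was the highest at 1 h, the difference was -1.14 (adjusted p = 0.126).

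The other IL1 and IL33 ligands and receptors were mostly low. Of 13 IL1 and IL33 ligands and receptors, 1 was tested: Il1rap, the co-receptor that IL1R1 and IL1RL1 share, rose by 1.04 ± 0.43 from 1 h to 4 h (adjusted p = 0.0353), with 0.83 (adjusted p = 0.0954) without 4 h replicate 13, and -0.11 in batch 2 alone. Il33, the ligand of IL1RL1, had 1 count over all follicles at 0 h and 0 at 1 h, and was counted in 7 of 13 follicles at 4 h (8 counts) and 9 of 11 at 8 h (24 counts). Il1a had 0 counts at 0 h and 1 h and was counted in 5 of 13 follicles at 4 h and 5 of 11 at 8 h. Il18 had 919 counts at 0 h, in 5 follicles, and 0, 2 and 0 at 1 h, 4 h and 8 h. Of 11 genes of IL1 receptor signaling, 8 were tested, and at 4 h against 0 h 2 rose and 2 fell (median -0.12, as over all genes). Tab3, of this list, had 89807 counts at 0 h and 6, 12 and 12 at the later times. Il18 and Tab3 had 0 counts in the batch 2 libraries after hCG, as had the set of 3332 genes described above, so their change from 0 h cannot be read. Tab1, a partner of the kinase MAP3K7, fell by 4.23 at 4 h against 0 h (SE 0.42, adjusted p = 5.15e-12), and Myd88, the adaptor of IL1R1, rose by 1.39 ± 0.24 from 1 h to 8 h (adjusted p = 4.98e-06). Irak2, a kinase of the receptor complex, rose by 1.41 ± 0.38 at 1 h against 0 h (adjusted p = 0.00337), while batch 2 alone gave 0.19 (adjusted p = 0.749).

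Il1rl1 (ENSMUSG00000026069.15, chromosome 1, 40429570 to 40465415, plus strand), the IL33 receptor ST2, was counted in a few follicles at 8 h. In batch 1 it had 0 counts in all 10 follicles at 1 h, 2 counts over the 10 at 4 h, and 16, 10, 15 and 9 counts in replicates 4, 6, 8 and 9 at 8 h, which held 50 of the 51 counts there. These 4 follicles had 5.95, 5.34, 7.24 and 3.40 CPM, and 6 of the 11 were at 0. On plate 1, pooled counts at equal depth at 8 h were 5.39 times the 3-count limit at 1 h, leaving out the counting error of the 51 counts. Across plates they were 22.6 times those at 4 h (95% interval 5.95 to 192). Its adjusted count was exactly 1 in 14 of the 15 batch 2 libraries whatever their depth, a pattern shared by 5 genes of the table, so its level against 0 h cannot be read. Mast cells carry ST2, and 6 of the 7 mast cell markers had 0 counts in all 46 libraries, among them Cpa3, Fcer1a and Ms4a2. The remaining marker, Hdc, histidine decarboxylase, rose by 2.26 ± 0.44 from 1 h to 8 h (adjusted p = 2.49e-05) and had 2.6, 18.2, 36.2 and 24.2 CPM in those 4 follicles.

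Il4ra (ENSMUSG00000030748.9, chromosome 7, 125552120 to 125579474, plus strand), the receptor chain for IL4 and IL13, overlaps exons of Gm44876 on the other strand. It ranged from 2.35 to 12 CPM at 0 h with a median of 6.28, and at 1 h from 0 to 19.6 in batch 1 with a median of 10.2. At 4 h batch 1 ranged from 11.0 to 45.6 with a median of 22, and at 8 h the range was 6.69 to 121 with a median of 37.4. Batch 2 had 4.0, 13.9 and 8.04 CPM at 1 h and 3.82, 12.1 and 36.6 at 4 h. Of the 11 follicles at 8 h, 10 stood above every follicle at 0 h.

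Il4ra rose by 1.44 ± 0.51 at 4 h (adjusted p = 0.0152) and by 2.63 ± 0.59 at 8 h (adjusted p = 0.000267) against 0 h, and from 4 h to 8 h by 1.18 ± 0.33 (adjusted p = 0.00314). Of 19 genes of IL4, IL13 and the common gamma chain, 4 were tested, and at 8 h against 0 h 3 rose and 1 fell (median 1.41, beside -0.15). Il13ra1, the partner chain of IL4RA, rose by 1.90 ± 0.75 at 8 h (adjusted p = 0.0359), a call lost with the library set term (2.04, adjusted p = 0.226), without 1 h replicate 12 (1.66, adjusted p = 0.0768) and without 4 h replicate 13 (1.39, adjusted p = 0.192). Stat6, the transducer of IL4RA, rose by 1.26 ± 0.24 from 1 h to 8 h (adjusted p = 2.67e-05), and Irs1, an adaptor that IL4RA recruits, fell by 3.43 at 8 h against 0 h (SE 0.47, adjusted p = 4.8e-08). Il4 and Il13 had 0 counts in all 46 libraries.

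Counted over the 6 tested genes, none was called at 1 h against 0 h in the edgeR fit, where 34.6% of all 8629 genes were. At an unadjusted p under 0.05, 1 of the 6 passed (Il6ra, lower), and DESeq2 called 0, beside 3219 of 8629 genes. At 4 h against 0 h 6 of 6 rose, where 54.2% of all genes were called and 21.9% were higher. At 8 h 6 of 6 rose, where 45.1% were called and 17.5% were higher. These comparisons share the 0 h follicles, so their counts are not independent. Il6ra and Osmr, at most 1.9 and 2.64 CPM at 0 h, passed the filter on low counts through later follicles, where they were higher. Socs3 and Il4ra, with medians of 3.81 and 6.28 CPM at 0 h, did so at least in part. Entry to the fit thus favored rises of these genes, which limits what 6 of 6 can show.

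The calls at 4 h against 0 h leaned on 1 follicle. Without 4 h replicate 13 of batch 2, which had the highest Osmr, Socs3, Il4ra and Il6st of the 3 batch 2 follicles at that time, 2 of the 6 passed (Il1r1 and Il6ra), where 4465 of 8612 genes were called. The values were then 0.76 for Il4ra (adjusted p = 0.295), 0.46 for Il6st (adjusted p = 0.193), 2.34 for Osmr (adjusted p = 0.0659) and 1.78 for Socs3 (adjusted p = 0.0544). Its leukocyte markers summed to 80.6 CPM, of which Lyz2 was 63.1, against 2.55 and 16.0 in the other 2. Its theca and stroma markers summed to 1410 CPM, against 103 and 714. The part of these cells was not tested.

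From 1 h to 4 h 5 of 6 rose (all but Il6st), where 54.8% of all genes were called. From 4 h to 8 h 4 rose (Il6ra, Osmr, Il4ra and Socs3) and 1 fell (Il1r1), where 19.8% of all genes were higher and 21.6% lower. In batch 1 time and plate cannot be told apart for these 2 steps. With a term for the 3 library sets, 2 of the 6 were called from 1 h to 4 h (Il6ra and Il1r1), where 2054 of 8629 genes were. From 4 h to 8 h it called 1 (Socs3), where 1446 of 8629 genes were called, and Il6ra then stood at -0.02 (adjusted p = 0.856). Against 0 h the same term called 5 of 6 at 4 h, beside 3903 of 8629 genes, and Socs3 was lost (1.08, adjusted p = 0.154). At 8 h it called 4 of 6, beside 3440 genes, and Il6st (0.98, adjusted p = 0.0616) and Il6ra (2.15, adjusted p = 0.913) did not pass. This term joins plate 1 to batch 2 through the 1 h follicles. Il6ra had 1 count over those 13 and 0 in batch 2, so its 2 values with this term cannot be resolved. From 1 h to 8 h, which batch 1 measured on 1 plate, 6 of 6 rose in the fit to all libraries, where 49.1% of all genes were called and 23.2% were higher, and 6 of 6 in batch 1 alone, where 29.0% of genes were higher. In batch 1 alone these rises were 5.81 ± 0.76 for Il6ra, 5.18 ± 0.62 for Socs3, 4.60 ± 0.73 for Osmr, 2.57 ± 0.44 for Il4ra, 1.54 ± 0.17 for Il1r1 and 0.68 ± 0.19 for Il6st. Over all times, 6 of 6 were called, beside 79.8% of all genes. The limit that the filter sets for genes low at 0 h holds for rises from 1 h as well.

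Each batch alone gave fewer calls in some steps. Batch 1 alone called 5 of 6 higher from 1 h to 4 h (all but Il6st), where 30.0% of 7631 genes were higher. From 4 h to 8 h it called 3 higher (Il6ra, Osmr, Il4ra), beside 23.8% of genes, and 1 lower (Il1r1), beside 24.8%. Over all its times it called 6 of 6, beside 74.0%. In batch 2 alone 5 genes were tested (Il6ra fell below the filter). None was called at 1 h against 0 h, where 18.2% of 10330 genes were, and 0 of the 5 had an unadjusted p under 0.05. Il1r1, Osmr and Il4ra rose at 4 h against 0 h, beside 13.7% of genes that were higher. Il1r1 was the 1 called from 1 h to 4 h, beside 6.15% of genes that were higher, and over all times Il1r1 and Osmr were called, beside 40.1%.

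**Figure D3:**
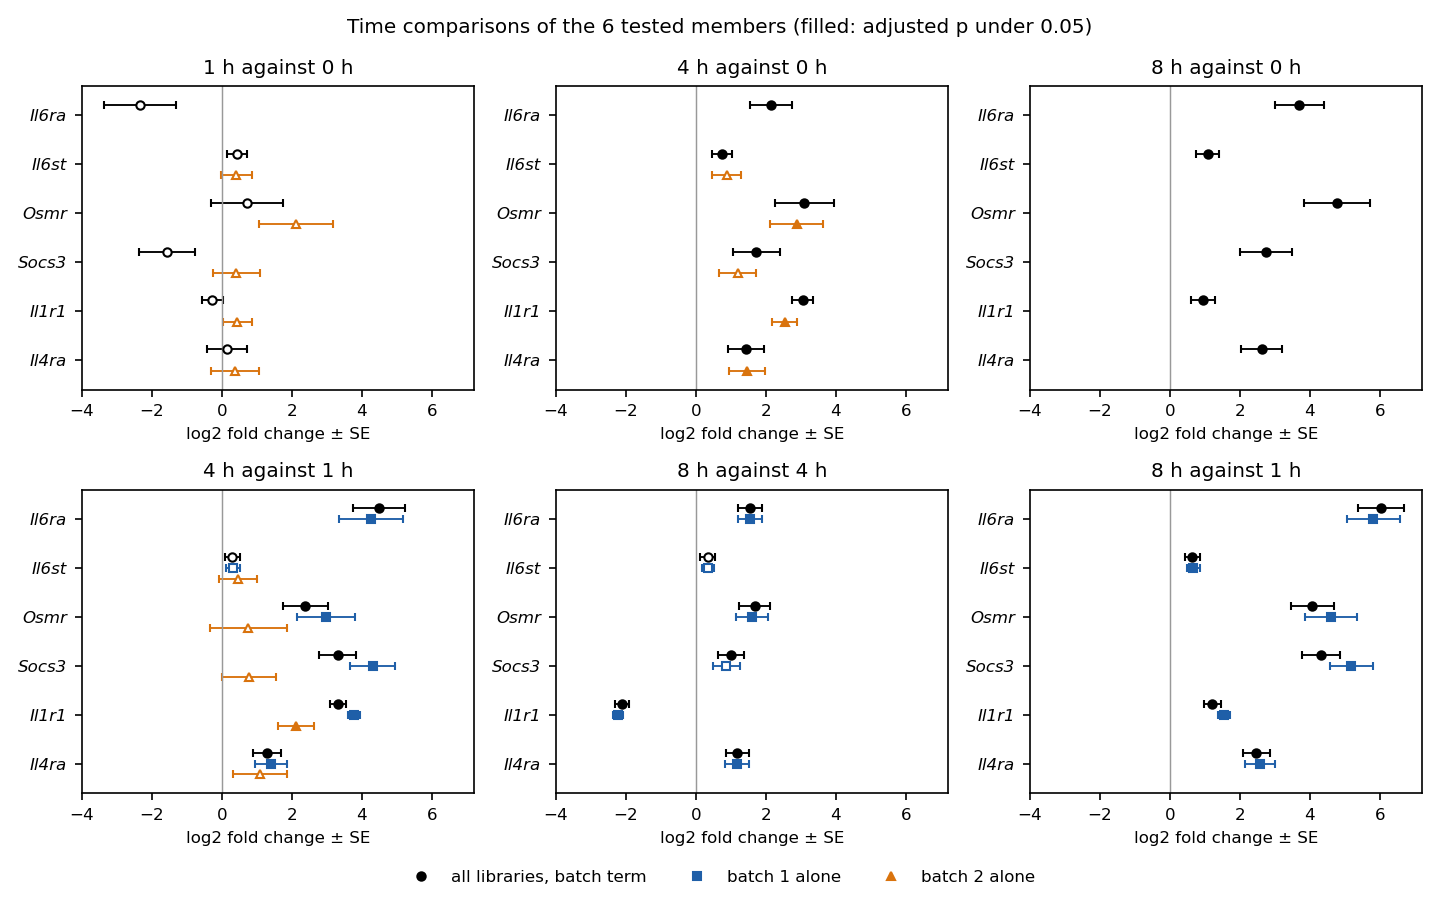
log2 fold change ± SE of the 6 tested genes in 6 comparisons of time, for all libraries with a batch term (black circles), batch 1 alone (blue squares) and batch 2 alone (orange triangles); filled points have an adjusted p under 0.05. From 1 h to 4 h Socs3 stands at 4.31 in batch 1 and 0.78 in batch 2, and from 4 h to 8 h Il1r1 is the one gene left of 0.

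Ordered by mean TPM, the genes changed rank with time. At 0 h Il6st (5.51 ± 4.61, SD, n = 9) and Il1r1 (4.97 ± 2.79) were highest, and their means differed by less than their SDs, as did those of Socs3 (2.64 ± 2.16) and Il4ra (1.78 ± 0.906) below them. At 4 h Il1r1 (63.5 ± 20.2 TPM, SD, n = 13) stood above Socs3 (22 ± 16.4) by more than their summed SDs, and Socs3, Il6st (13.4 ± 4.72), Osmr (8.93 ± 7.27) and Il4ra (7.87 ± 4.59) followed with no such gap. At 8 h Socs3 (44.8 ± 29.0 TPM, SD, n = 11) was highest, followed by Osmr (26.6 ± 25.6), Il4ra (18.1 ± 11.5), Il6st (17.4 ± 5.43) and Il1r1 (16.1 ± 4.35), none apart from its neighbor by more than the summed SDs, with Il6ra (5.66 ± 3.82) below Il1r1 by more than that. Lif, Il6 and Il1rl1 stayed under 2 TPM on average at 8 h (0.413, 1.90 and 0.603), and Il11 was at 2.17.

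At 8 h the follicles differed from each other more for some genes than for others. The SD was 98.9% of the mean for Osmr, 65.9% for Socs3, 65.7% for Il4ra, 64.7% for Il6ra, 33.8% for Il6st and 26.8% for Il1r1 (n = 11). Replicate 8 was the highest for Osmr (152 CPM), Il4ra (121) and Il6st (140.0) and second for Socs3 (154), and replicate 4 was the lowest for all 4 (2.6, 6.69, 32.3 and 5.95 CPM). The 5 highest follicles were the same for Osmr, Il4ra and Il6st (replicates 2, 5, 8, 9 and 11), and 4 of them were among the 5 highest for Socs3.

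Il6ra did not share this order. Its highest follicles were replicates 7 (31.5 CPM) and 3 (29.7), which ranked 8th and 9th for Osmr, and 1 of its 5 highest was shared with those of Osmr. Replicate 4, lowest for Osmr, was the third highest for Il6ra (16.7 CPM). Replicate 8 had a total count of 2017033 and replicate 4 of 2356541. Replicates 7 and 3, the highest for Il6ra, had 714844, the lowest of the 8 h group, and 1218462. The part of depth was not tested. Leukocyte markers were highest in replicates 5, 8, 9 and 2 (68.9, 57.9, 31.8 and 18.5 CPM), which were also the 4 highest for Osmr and for Il4ra, and stood at 14.5 in replicate 7 and 9.29 in replicate 4. Most of each of these sums was 1 of the 16 markers, Lyz2. It stood at 55.4, 41.5, 22.7 and 12.7 CPM in replicates 5, 8, 9 and 2. Theca and stroma markers summed to 2840 CPM in replicate 8 and 34.9 in replicate 4, with a median of 223 over the group. The part of these cells was not tested. Leaving out replicate 4, or replicate 8, kept the rises at 8 h against 0 h and against 1 h at 6 of 6. Of all genes, 1852 of 8579 and 1819 of 8582 then rose against 0 h, and 2181 and 2173 against 1 h.

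**Figure D4:**
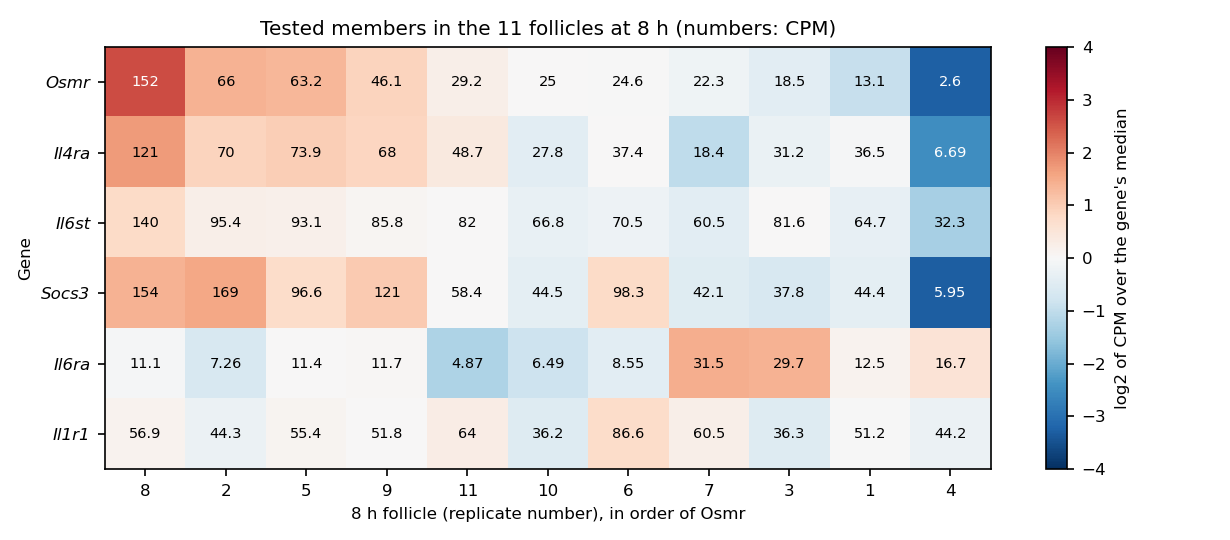
CPM (numbers) of the 6 tested genes in the 11 follicles at 8 h, in order of Osmr from left to right, with color for the log2 of the CPM over the gene's median. Replicate 8 is highest and replicate 4 lowest for Osmr, Il4ra and Il6st, while Il6ra is highest in replicates 7 and 3.

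The genes most alike each tested gene were found by Pearson r of log2 CPM over the 31 batch 1 libraries, which share the time course and the plates, as a description. Socs3 was most like Bhlhe40, a transcriptional repressor (r = 0.968), Timp1 (0.935) and Abhd2 (0.935), and Osmr was most like Bhlhe40 (0.916), Mrap (0.906) and Timp1 (0.901). Il1r1 was most like Prep (0.971), Tnfrsf12a, the TWEAK receptor (0.953), and Map2k3, a kinase upstream of p38 (0.95). Tnfrsf12a had mean levels of 90.0, 1210 and 268 CPM at 1 h, 4 h and 8 h in batch 1, and Prep of 90.0, 704 and 246, both highest at 4 h like Il1r1 (19.5, 252 and 53.4). Il6ra was most like Sdc1, syndecan 1 (0.882), Lrrc59 (0.879) and Pygo2 (0.872). Il6st was most like Il4ra (0.85), Adamts4 (0.77) and Stat3 (0.766), and Il4ra was most like Mvp (0.873), Il6st (0.85) and Adamts4 (0.843). Genes under a mean log2 CPM of 3 were not compared as partners.

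Markers of other cells moved with time as well. The 16 leukocyte markers, 1 of which was tested (Lyz2), summed to a median of 28.2 CPM at 0 h (13.7 to 1570), 41.6 at 1 h (6.65 to 354), 14.4 at 4 h (0 to 92.4) and 9.29 at 8 h (0.927 to 68.9). The 1570 CPM at 0 h was that of replicate 1, where Lyz2 stood at 40.8 CPM. Sums at 0 h include Itgam, with the limit given above. Within 4 h the leukocyte markers were highest in replicates 10 and 13 (92.4 and 80.6 CPM), which had the second and the third highest Osmr of that time. Lyz2 alone stood at 65.4 and 63.1 CPM in these 2. Theca and stroma markers were highest at 4 h in replicates 10, 8 and 13 (2390, 2360 and 1410 CPM). Those replicates also held the highest Osmr of that time (30.8, 35.9 and 19.1 CPM). S100a8 and S100a9 had 0 counts in all 46 libraries. The 8 theca and stroma markers were all tested and had medians of 1300, 1760, 309 and 223 CPM, and 6 fell from 1 h to 8 h (median -2.52). Of 7 granulosa markers tested, 6 fell from 1 h to 8 h (median -2.74), and their summed median went from 29300 CPM at 0 h to 13300 at 8 h. The 9 endothelial markers, 2 of them tested, had medians of 18.3, 53.6, 15.1 and 19.3 CPM, and 1 fell from 1 h to 8 h. The part of these cells in the values of the 10 genes was not tested.

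The authors' deposited table gives folds against 0 h for all 10 genes. It lists Il1r1 at 9.38-fold at 4 h and 2.27-fold at 8 h, Osmr at 12.3-fold and 38.6-fold, Il6ra at 4.73-fold and 14.4-fold, Socs3 at 5.88-fold and 12.2-fold, Il4ra at 3.17-fold and 7.41-fold, and Il6st at 1.74-fold and 2.24-fold. All have the direction of the values above at 4 h and 8 h.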

How the data were processed

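Single follicles were snap-frozen, amplified with Smart-Seq2 and made into paired-end Nextera XT libraries without strand, per the labels' protocols. HISAT2, Partek, DESeq2 and the build GRCm38 are named in the submitters' processing notes, without versions. The authors deposited whole-number counts for 25147 genes, adjusted between batches with ComBat-seq according to the table's name (settings not stated), so they are not raw reads, and low counts may be moved by that step. The deposited TPM, for 25122 genes, were computed by the authors from those counts according to its table's name. The authors' deposited table of comparisons gives p-values and signed folds (p-value and fold change per the file headers) for 19925 genes. In each of the first 2 tables, 10 columns fit none of the described samples and were left out.

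The labels gave the time and the batch of each library. The main test was the quasi-likelihood F test of edgeR 4.0.16 (R 4.3.3) on the counts of 46 libraries, with time and batch as terms, TMM scaling and genes filtered by filterByExpr on time, which tested 8629 genes at a biological coefficient of variation of 34.0%. An adjusted p under 0.05 was called, and the SE was the size of the fold change over the square root of F. The batch term makes 8 h against 0 h a sum of differences within batches. Pooled ratios used summed counts over summed TMM library sizes, with exact binomial intervals at 95% and a floor of 3 counts over a group. The scripts were tested on simulated data.

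Alternatives were RLE factors, no filter, a term for the 3 library sets in place of batch, time as the only term, a block for the replicate number, each batch alone, no "_ds" libraries (5 at 0 h, meaning not given), DESeq2 1.42.0, leaving out each batch 2 library after hCG, limma 3.58.1 on log2(TPM + 1) and log2(TPM + 0.1) at a mean TPM of at least 1, only the genes counted in batch 2 after hCG, and counts thinned to 241442. The leaving out of 0 h replicate 3 and of 8 h replicates 4 and 8, and the test of the batch difference on the 8629 genes, were chosen after seeing the data.

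The 10 genes and the lists (other IL6 family ligands and receptors, JAK-STAT signaling and inhibitors, STAT3 targets, IL1 and IL33 genes, IL1 receptor signaling, IL4, IL13 and common gamma chain, other interleukin receptors, and markers of granulosa, oocyte, theca and stroma, leukocytes, mast cells and endothelium) were chosen with earlier results of these data known. Named were the 10 genes, genes among the 3 largest called rises and falls of a list in a comparison, and the 3 genes most alike each tested gene at a mean log2 CPM of at least 3. Names and coordinates come from GENCODE M21 and promoter stretches from RefSeq (GRCm38.p6).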

Additional observations from a re-analysis of the deposited data

Results flagged for a closer look

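In 18 groups of 4 to 10 follicles of the 6 tested genes, the highest or lowest follicle was set against the rest by Dixon's test. The test flags about 1 in 20 groups by chance. The groups were 0 h, and 1 h and 4 h of batch 1. The 11 follicles at 8 h and the groups of 3 in batch 2 fell outside this size and were not looked at. At 0 h, Il6st replicate 3 (90.5 CPM) stood above the others (20.2 to 39.0). At 1 h in batch 1, Il6st replicate 5 (23.9 CPM) lay below the others (43.9 to 74.2), and Il6ra replicate 6 had 1.11 CPM, from 1 count, where the others had 0. At 4 h in batch 1, Socs3 replicate 9 (10.0 CPM) lay below the others (29.9 to 96.2).

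The step from 1 h to 4 h differed between the batches for Il1r1 (-1.69, batch 2 minus batch 1) and Socs3 (-3.48). It also differed for Il7 (-3.78, adjusted p = 0.000568), Pim1 (-3.52, adjusted p = 0.000576), Bcl2l1 (2.27, adjusted p = 0.00527), Irak2 (2.37, adjusted p = 0.0135), Stat6 (2.22, adjusted p = 0.0305) and Il17ra (2.42, adjusted p = 0.0423). In batch 1 this step also goes from plate 1 to plate 2, and the 2 cannot be told apart there.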

How the results depend on the processing

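Over the 6 tested genes and 42 comparisons of list genes, 1502 of 1607 values kept direction and side of the threshold, 74 lost the call, 8 gained one and 23 changed sign. The replicate numbers do not pair the follicles: their deviations correlated at -0.20 to 0.22 over 30 pairs, and 5 follicles correlated best with their own number. With a replicate block, 2 genes were called at 4 h and 1 at 8 h against 0 h, beside 1479 and 852 of all 8629 genes. It gave Il4ra at -0.48 at 4 h, and at 1 h Il6st at -0.10, Osmr at -1.65, Il1r1 at 0.17 and Il4ra at -1.66. At 1 h against 0 h the count was 1 with no filter on low counts (beside 3899 of 19925 genes) and 2 with no batch term (4136 of 8629). Limma called 1 on log2(TPM + 1) (3984 of 11834) and 2 on log2(TPM + 0.1) (4073 of 11834), with Il1r1 at 0.06 and 0.13. Leaving out 1 library gave 0 to 1 there, 2 to 6 at 4 h against 0 h and 0 to 2 for the difference between batches. Of all genes, 2364 to 2893, 4314 to 4752 and 208 to 390 were then called. The genes tested numbered 8579 to 8760, and 5744 to 6078 for the difference between batches.

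Batch 2 alone called 3 at 4 h against 0 h, 1 from 1 h to 4 h and 2 over all times, and gave Socs3 at 0.42 and Il1r1 at 0.43 at 1 h, and Il1rap at -0.11 and Irak2 at 0.51 from 1 h to 4 h. With the library set term, 2 were called from 1 h to 4 h and 1 from 4 h to 8 h, beside 2054 and 1446 of 8629 genes. Against 0 h the term called 5 at 4 h and 4 at 8 h, beside 3903 and 3440 genes. It gave Socs3 at 0.34 and Il1r1 at 0.43 at 1 h, Il1rap at -0.20 and Irak2 at 0.45 from 1 h to 4 h, and Il6ra at -0.02, Pim1 at 0.08 and Il7 at 0.25 from 4 h to 8 h. Limma on log2(TPM + 0.1) called 2 from 4 h to 8 h, beside 2785 of 11834 genes. Thinned counts, where 3 genes passed the filter, called 2 at 4 h and 1 at 8 h against 0 h, 2 from 1 h to 4 h, 2 from 4 h to 8 h, 3 from 1 h to 8 h and 3 over all times. Of all 3159 genes tested there, 1649, 1399, 1912, 1424, 1830 and 2611 were called, in that order. The batch difference on the 8629 genes called 2 (Il1r1, Socs3).

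Without 4 h replicate 13, Il4ra stood at -0.37 at 1 h and the batch difference of Il6st at -0.36, which was -0.07 without 1 h replicate 11 and 0.41 without 4 h replicate 11. That of Il4ra was 0.29 without 1 h replicate 12, 0.21 without 4 h replicate 11 and -1.39 without 4 h replicate 13. Where no value above shows it, the cause was not tested. Depth limits low levels at 1 h, where 3 counts stand for 2.62 to 10.7 CPM, and in the shallowest library at 4 h, where they stand for 11.5 CPM.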

Other observations

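Among the genes of the common gamma chain, Il7, the cytokine interleukin 7, went from 20 counts over the 9 follicles of the 0 h group to 174 (1 h) and 4090 (4 h), then to 373 (8 h). It rose by 4.16 ± 0.69 at 1 h (edgeR adjusted p = 5.41e-06) and by 6.92 ± 0.67 at 4 h (adjusted p = 3.9e-12) against 0 h and fell by 3.21 from 4 h to 8 h (SE 0.38, adjusted p = 1.99e-09), with its highest level at 4 h, as Il1r1 had. With a term for the 3 library sets the last step was 0.25 (adjusted p = 0.862). Of 16 other interleukin receptors 3 were tested, and at 4 h against 0 h 1 rose and 1 fell (median -0.03, beside -0.12 over all genes). Il17ra, the IL17 receptor chain, rose by 1.89 ± 0.37 (adjusted p = 2.46e-05), and limma on log2(TPM + 0.1) gave 1.29 (adjusted p = 0.0679).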
